A study of Homo sapiens with 10 samples.

Results

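The clustered protocadherin genes were followed in T47D spheroids, from wild-type cells (WT) and from 2 clones of the line, A1 and A2, in which SAMHD1 was knocked out (SAMHD1-KO). Members were all genes of the count table whose NCBI gene identifier carries a symbol starting with PCDHA, PCDHB or PCDHG. There were 33 of them among 13920 listed genes, namely 1 alpha, 12 beta and 20 gamma isoforms. The NCBI RefSeq gene table for GRCh38.p14 holds 53 coding genes of the clusters, so 20 coding isoforms were not among the genes analysed here. These were PCDHA2 to PCDHA13, PCDHAC1 and PCDHAC2, PCDHB1, PCDHB5, PCDHB6 and PCDHB7, and PCDHGA12 and PCDHGC5. The authors removed every gene with a count of 0 in any library, so the listed isoforms are those with at least 1 read in all 10 libraries.

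The clustered protocadherins are cadherin-like adhesion proteins encoded in tandem on chromosome 5, from position 140786140 (start of PCDHA1) to 141512975 (end of the gamma cluster), with the alpha, beta and gamma genes in that order. Each variable first exon has its own promoter and encodes the extracellular and membrane-spanning domains, which bind the same isoform on a neighbouring cell. Alpha and gamma first exons are spliced to constant exons shared within their cluster, while each beta gene is a single exon of its own. In neurons every cell uses a few promoters of the many, and CTCF with cohesin, DNA methylation and SMCHD1 are known to act on that choice. In tumours, those of the breast among them, DNA methylation over these clusters has been described.

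By its label T47D is an established human luminal breast cancer cell line, and SAMHD1 encodes a dNTP hydrolase. The WT group had 4 libraries (experiments 10, 11, 15 and 16), clone A1 had 4 (the same experiments) and clone A2 had 2 (experiments 15 and 16). All were from spheroids on day 4. Each knock-out group is 1 clone, edited with CRISPR-Cas9 at SAMHD1 exon 5, so an effect of the knock-out and a feature of the clone cannot be told apart within a group. Clone A2 has no library of experiments 10 and 11. The labels name the replicates only by experiment number, so p-values measure the spread between these libraries.

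Library totals were 40077369 to 51311482 counts, of which the members took 4526 to 6341 (0.00973% to 0.0129%). Levels are given as CPM, that is, reads of a gene per megaread of the library after edgeR's TMM scaling, and 1 CPM stood for 39.7 to 51.3 reads. SAMHD1 had 53.9, 55.7, 49.8 and 56.4 CPM in the WT libraries, in the order of experiments 10, 11, 15 and 16. It had 22.5, 23.0, 6.44 and 6.15 CPM in clone A1 in the same order, and 23.6 and 20.2 CPM in clone A2 in experiments 15 and 16. All 6 knock-out libraries were below all WT libraries. Of 10 luminal markers 8 were listed, and their summed level was 113 to 130 CPM in WT, 106 to 118 CPM in clone A1 and 102 to 106 CPM in clone A2. Among the defining ones, KRT19 and TFF1 were not listed, and ESR1 was at 0.183 to 1.59 CPM, EPCAM at 0.348 to 1.78 CPM and CDH1 at 0.684 to 2.16 CPM over the 10 libraries, so these genes were not listed or at a low level in all libraries, which goes against the luminal label. Other luminal genes were higher, with KRT18 at 36.3 to 60.3 CPM, GATA3 at 15.4 to 24.8 CPM, PGR at 15.4 to 20.7 CPM and KRT8 at 3.10 to 9.07 CPM. The summed level joins members that moved in different directions. In experiments 15 and 16 KRT8 was at means of 7.30 CPM in WT, 4.49 CPM in clone A1 and 3.74 CPM in clone A2. FOXA1 was at 19.2, 26.5 and 23.8 CPM in the same order. CDH2, the N-cadherin of neural and mesenchymal cells, chosen after its values were seen, was at 118 to 158 CPM. Neural markers (7 of 8 listed) summed to 95.4 to 107 CPM in WT, 95.8 to 106 CPM in clone A1 and 118 to 123 CPM in clone A2. In experiments 15 and 16 NEFL was at a mean of 89.6 CPM in clone A2 and 59.2 CPM in WT, while TUBB3 (8.67 and 13.2 CPM) and SYP (6.45 and 8.56 CPM) were lower in clone A2, and RBFOX3 and GFAP were at 0.0816 to 1.08 CPM over all libraries. Fibroblast markers (3 of 8 listed) summed to 25.5 to 28.9 CPM in WT, 19.0 to 22.9 CPM in clone A1 and 18.8 to 19.7 CPM in clone A2. In experiments 15 and 16 the lower sums of the clones went with COL3A1 (means of 9.11 CPM in WT, 2.87 CPM in clone A1 and 2.02 CPM in clone A2), while COL1A1 (10.5, 9.81 and 10.5 CPM) and PDGFRA (7.21, 8.26 and 6.73 CPM) overlapped with WT in both clones. In experiments 10 and 11 the means of COL3A1 (16.6 CPM in WT and 12.4 CPM in clone A1), COL1A1 (9.49 and 6.24 CPM) and PDGFRA (2.74 and 2.19 CPM) were lower in clone A1. Sums were 2.60 to 3.71 CPM for leukocyte markers (3 of 6) and 0.975 to 1.92 CPM for endothelial markers (2 of 4). Mitochondrial genes held 7.79% to 8.48% of the counts in experiments 10 and 11 and 9.05% to 13.9% in experiments 15 and 16, and the part of this share and of the marker levels in the results was not tested.

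The promoters show how the genes are set up, and 6 of them are printed because the results turn on these genes: the sole listed alpha isoform, the beta isoforms that led their subfamily, a gamma isoform that moved in clone A1, and the highest gamma isoforms. Of the 53 coding genes, 47 had an entry in the RefSeq promoter table for GRCh38.p14. Each line gives the 250 bases before the annotated start on the plus strand, 5′ to 3′. Capitals mark CGCT on either strand and, where present, the 10-letter string GGTGGCGCTG.
PCDHA1 (chr5:140785890-140786139): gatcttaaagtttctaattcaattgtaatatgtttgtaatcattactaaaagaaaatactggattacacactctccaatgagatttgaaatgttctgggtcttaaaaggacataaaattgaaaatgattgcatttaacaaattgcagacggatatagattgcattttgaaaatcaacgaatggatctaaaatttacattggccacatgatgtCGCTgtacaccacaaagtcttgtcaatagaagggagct
PCDHB2 (chr5:141094365-141094614): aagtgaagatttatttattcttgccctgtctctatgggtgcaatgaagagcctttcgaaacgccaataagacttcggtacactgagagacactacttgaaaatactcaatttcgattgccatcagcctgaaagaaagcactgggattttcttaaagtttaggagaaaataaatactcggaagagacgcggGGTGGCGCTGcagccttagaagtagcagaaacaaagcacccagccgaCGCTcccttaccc
PCDHB15 (chr5:141245145-141245394): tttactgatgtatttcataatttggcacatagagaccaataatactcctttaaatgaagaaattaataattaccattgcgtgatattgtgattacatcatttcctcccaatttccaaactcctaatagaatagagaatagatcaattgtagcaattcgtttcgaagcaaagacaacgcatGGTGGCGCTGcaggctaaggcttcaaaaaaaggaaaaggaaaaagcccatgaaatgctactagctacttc
PCDHGB5 (chr5:141397697-141397946): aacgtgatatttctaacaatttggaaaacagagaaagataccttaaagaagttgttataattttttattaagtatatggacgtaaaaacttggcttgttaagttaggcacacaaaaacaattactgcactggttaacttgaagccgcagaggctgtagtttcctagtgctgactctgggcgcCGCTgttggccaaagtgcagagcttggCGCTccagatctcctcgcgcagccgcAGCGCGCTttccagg
PCDHGB7 (chr5:141417427-141417676): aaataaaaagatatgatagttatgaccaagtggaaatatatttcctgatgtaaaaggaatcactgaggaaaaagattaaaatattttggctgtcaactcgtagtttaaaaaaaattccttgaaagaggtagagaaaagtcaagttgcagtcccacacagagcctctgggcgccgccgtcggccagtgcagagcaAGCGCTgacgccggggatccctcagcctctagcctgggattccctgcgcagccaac
PCDHGC3 (chr5:141475716-141475965): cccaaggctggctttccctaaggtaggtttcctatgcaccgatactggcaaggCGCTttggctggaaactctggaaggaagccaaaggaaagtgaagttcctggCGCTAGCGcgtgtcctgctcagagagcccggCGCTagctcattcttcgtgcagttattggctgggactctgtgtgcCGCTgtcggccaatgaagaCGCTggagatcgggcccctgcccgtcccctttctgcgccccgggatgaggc

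CGCT on either strand was in 45 of the 47 promoters (95.7%), against 64.8% of all 35116 promoters of the table over the same 250 bases. GGTGGCGCTG, which contains CGCT, was the 10-letter string found in the most member promoters. The string was picked from these same promoters, so its frequency in them against all promoters is a description and no test. It was in 11 of 14 beta promoters, in none of the 13 alpha or 20 gamma promoters, and in 0.225% of all promoters. It began between 16 and 84 bases before the start, at 60 bases in PCDHB2 and at 70 bases in PCDHB15. Among beta promoters it was in 9 of 11 listed genes, all but PCDHB8 and PCDHB14, and in 2 of 3 genes that were not listed. A match is a description of the letters and not a binding site. The GC content of the promoter was 60.0% in PCDHGC3, the highest among the 20 listed gamma isoforms, whose median was 40.2%. Across these 20 isoforms it ran with the level per kilobase (Spearman's rho 0.56). Across 11 listed beta isoforms rho was 0.26. These are correlations across genes of 1 locus that share libraries, and no p is given.

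Exons shared within a cluster bear on the levels. In the GENCODE annotation of GRCh38, 27.5% to 64.4% of the exonic bases of a listed gamma isoform (median 43.8%) and 51.3% of those of PCDHA1 are also exonic in another clustered protocadherin gene, while no beta isoform shares any. How reads in shared exons were counted is not given in the sources used here, so alpha and gamma levels are less certain than beta levels. The 20 gamma isoforms nevertheless ran from 3 reads for PCDHGA3 in WT of experiment 16 to 3195 reads for PCDHGC3 in the same library, so reads in the constant exons had not been added in full to each isoform. Beta genes are paralogs, and 0.815% (PCDHB4) to 17.9% (PCDHB10) of their 150-base windows are identical to a stretch of another clustered gene.

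PCDHA1 was the only alpha isoform listed and the lowest of the 33 members per kilobase of exon in WT, or the second lowest, above PCDHGA3, per unshared kilobase. It had 6, 9, 2 and 7 reads in WT, 5, 11, 3 and 7 in clone A1 and 4 and 2 in clone A2, or 0.0390 to 0.239 CPM. The groups overlapped. It was called in none of the 7 comparisons by edgeR, in which its log2 fold changes had SEs of 0.65 to 1.02.

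Beta expression was led by PCDHB2 and PCDHB15, followed by PCDHB14 and PCDHB13. PCDHB2 had 5.05, 6.26, 4.13 and 3.80 CPM in WT, 4.46, 5.44, 2.22 and 2.09 CPM in clone A1 and 1.75 and 1.70 CPM in clone A2, with experiments in the order given above. It was highest in experiments 10 and 11, where the ranges of WT and clone A1 overlapped, and lowest in the clones of experiments 15 and 16. Within an experiment the clone was below WT in 6 of 6 pairs of libraries for PCDHB2, as for PCDHB10 and PCDHGA11, and above WT in 6 of 6 for PCDHGB5 and PCDHGA5. PCDHB10 had 4 to 27 reads a library and PCDHGA5 had 7 to 27. Pairs of clone A1 and of clone A2 share the WT libraries of experiments 15 and 16. How many of all genes lay on 1 side in 6 of 6 pairs was not counted. PCDHB15, the last gene of the beta cluster, had 1.80, 1.94, 3.38 and 3.16 CPM in WT, 1.74, 1.85, 2.76 and 2.98 CPM in clone A1 and 3.07 and 3.38 CPM in clone A2. Here all 6 libraries of experiments 15 and 16 were above all 4 of experiments 10 and 11. For this and the members below, the share of all genes split in this way by experiments, or with clone A2 apart from the other 8 libraries, was not counted. PCDHB14 had 1.78, 2.22, 1.64 and 1.97 CPM in WT, 1.85, 1.83, 1.83 and 1.54 CPM in clone A1 and 1.35 and 1.29 CPM in clone A2, so clone A2 held its lowest values. PCDHB13 had 1.28, 2.28, 1.03 and 1.33 CPM in WT, 1.60, 2.09, 0.708 and 0.849 CPM in clone A1 and 0.449 and 0.840 CPM in clone A2, and was higher in experiments 10 and 11 than in both clones of experiments 15 and 16. The other 8 beta isoforms stayed under 1 CPM in all 10 libraries.

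**Figure D1:**
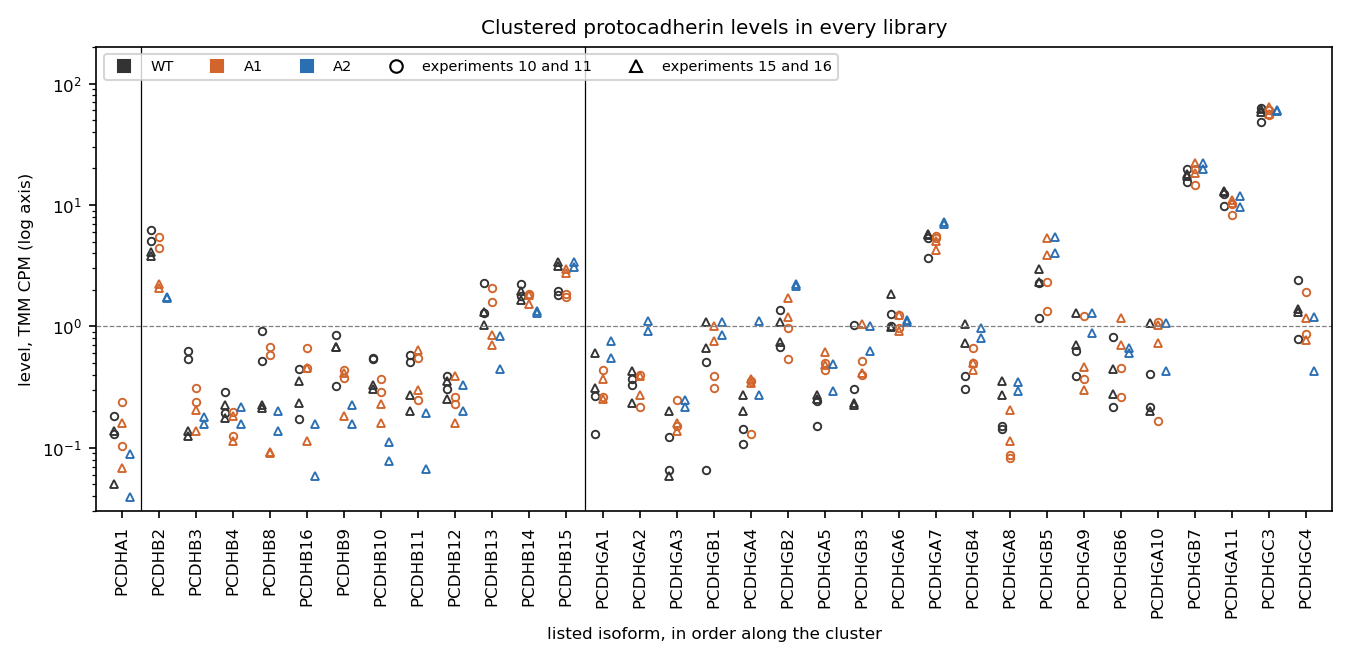
Level of each of the 33 listed isoforms in CPM on a log axis, with isoforms in their order along the cluster, 1 point per library, colours for WT, clone A1 and clone A2, circles for experiments 10 and 11 and triangles for experiments 15 and 16. The dashed line is 1 CPM. PCDHGC3 lies at 48.0 to 64.4 CPM in all libraries, while the only alpha isoform, PCDHA1, lies at 0.0390 to 0.239 CPM.

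Gamma expression was dominated by PCDHGC3, one of the C-type isoforms at the end of the cluster, whose use in neurons is constitutive rather than by choice. It had 48.0, 63.2, 58.4 and 62.3 CPM in WT, 55.3, 60.5, 56.2 and 64.4 CPM in clone A1 and 60.3 and 59.3 CPM in clone A2. The 3 groups overlapped, and the highest library was 1.34 times the lowest, the narrowest range of any member. PCDHGB7, the last B-type gene of the gamma cluster, had 15.6, 19.9, 17.4 and 18.0 CPM in WT, 14.7, 19.6, 22.2 and 18.2 CPM in clone A1 and 22.3 and 19.8 CPM in clone A2. PCDHGA11, an A-type isoform next to it, had 9.87, 12.3, 12.9 and 12.9 CPM in WT, 8.19, 10.2, 10.5 and 10.9 CPM in clone A1 and 9.69 and 11.8 CPM in clone A2. The groups overlapped for both. Each clone library was nevertheless below WT of its own experiment in PCDHGA11. With the experiment as a replicate block clone A1 differed from WT in PCDHGA11 by −0.27 in log2 in experiments 15 and 16 (adjusted p = 0.0734, edgeR) and by −0.27 in experiments 10 and 11 (adjusted p = 0.144, edgeR). Clone A2 differed by −0.27 (adjusted p = 0.0559, edgeR), and none of the 3 passed the threshold. PCDHGA7 had 3.64, 5.36, 5.70 and 5.73 CPM in WT, 5.33, 5.55, 4.29 and 5.003 CPM in clone A1 and 6.93 and 7.28 CPM in clone A2, with both clone A2 libraries above the other 8. PCDHGB5 had 1.17, 2.28, 2.95 and 2.32 CPM in WT, 1.33, 2.33, 3.86 and 5.32 CPM in clone A1 and 5.45 and 4.02 CPM in clone A2, and the 4 clone libraries of experiments 15 and 16 were above the other 6.

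Per kilobase of exon, which allows comparison between genes, the order in WT began with PCDHGC3 at 10.7 ± 1.28 CPM per kb (SD, n = 4), PCDHGB7 at 3.57 ± 0.36, PCDHGA11 at 2.07 ± 0.25, PCDHB2 at 1.17 ± 0.27, PCDHGA7 at 0.939 ± 0.182 and PCDHB15 at 0.647 ± 0.205. The first 3 did not overlap with each other or with the next isoform over the WT libraries, at 8.85 to 11.6, 3.13 to 4.00 and 1.70 to 2.22 CPM per kb. PCDHB2 (0.928 to 1.53) and PCDHGA7 (0.670 to 1.05) overlapped, as did PCDHGA7 and PCDHB15 (0.453 to 0.851). After these came PCDHGB5 at 0.446 ± 0.151 and PCDHB14 at 0.431 ± 0.057 CPM per kb, which overlapped too. Per unshared kilobase the gamma values were higher and the order changed, with PCDHGC3 at 17.8, PCDHGB7 at 6.36, PCDHGA11 at 3.30, PCDHGA7 at 1.57, PCDHB2 at 1.17, PCDHGB5 at 0.805 and PCDHB15 at 0.647 CPM per unshared kb. The order between beta and gamma isoforms thus depends on how shared exons are treated. In clone A2 PCDHB2 was at 0.421 ± 0.009 CPM per kb (SD, n = 2) and PCDHB15 at 0.812 ± 0.054.

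An isoform was counted for a group when all its libraries reached 1 CPM. WT had 9 such isoforms, clone A1 had 8 and clone A2 had 10, where clone A2 had only 2 libraries to pass. In the 2 libraries of experiments 15 and 16 alone the counts were 10, 9 and 10. The 8 isoforms PCDHB2, PCDHB14, PCDHB15, PCDHGA7, PCDHGB5, PCDHGB7, PCDHGA11 and PCDHGC3 reached 1 CPM in all 10 libraries. WT had PCDHB13 beside them, and clone A2 had PCDHGB2 and PCDHGA6. In experiments 15 and 16 PCDHGB2 reached 1 CPM in both libraries of clone A1 as well, and PCDHGA6 was at 1.84 and 0.994 CPM in WT and at 1.121 and 1.09 CPM in clone A2. Another 13 isoforms were under 1 CPM in all 10 libraries, and 12 lay on both sides of it. The counts depend on the level, with 12, 12 and 17 isoforms for WT, clone A1 and clone A2 at 0.5 CPM and 5, 5 and 7 at 2 CPM.

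The choice was then described as each isoform's share of the summed CPM per kilobase of its subfamily. In the gamma cluster PCDHGC3, PCDHGB7 and PCDHGA11 were the 3 highest, in this order, in all 10 libraries. PCDHGC3 held 50.9% to 59.2% of the gamma sum, PCDHGB7 17.1% to 22.8% and PCDHGA11 7.64% to 11.1%. PCDHGA7 came next in 8 libraries and PCDHGB5 in 2, and the first 4 isoforms held 85.0% to 91.0% together. PCDHGA11 held 10.8% ± 0.38 in WT (SD, n = 4), 8.76% ± 0.40 in clone A1 (n = 4) and 8.55% ± 1.28 in clone A2 (n = 2), and the lowest WT share, 10.2%, was above the highest share of the clones, 9.46%, a difference chosen after its values were seen and not tested. Divided by unshared exonic bases in place of all exonic bases, the share of PCDHGC3 was 49.9% to 58.4%.

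In the beta cluster the leading isoform was not the same in all libraries. PCDHB2 was the first beta isoform in 6 libraries, all 4 of WT and clone A1 of experiments 10 and 11, and PCDHB15 in the other 4, the clones of experiments 15 and 16. PCDHB2 held 37.7, 36.0, 32.6 and 30.5% of the beta sum in WT, 35.5, 37.8, 23.1 and 22.7% in clone A1 and 21.8 and 19.9% in clone A2. PCDHB15 held 13.9, 11.5, 27.5 and 26.1% in WT, 14.3, 13.2, 29.8 and 33.4% in clone A1 and 39.6 and 40.9% in clone A2. The share of PCDHB15 was thus higher in experiments 15 and 16 in WT as well, where PCDHB2 stayed ahead. PCDHB14 came after these 2 in 9 of 10 libraries.

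**Figure D2:**
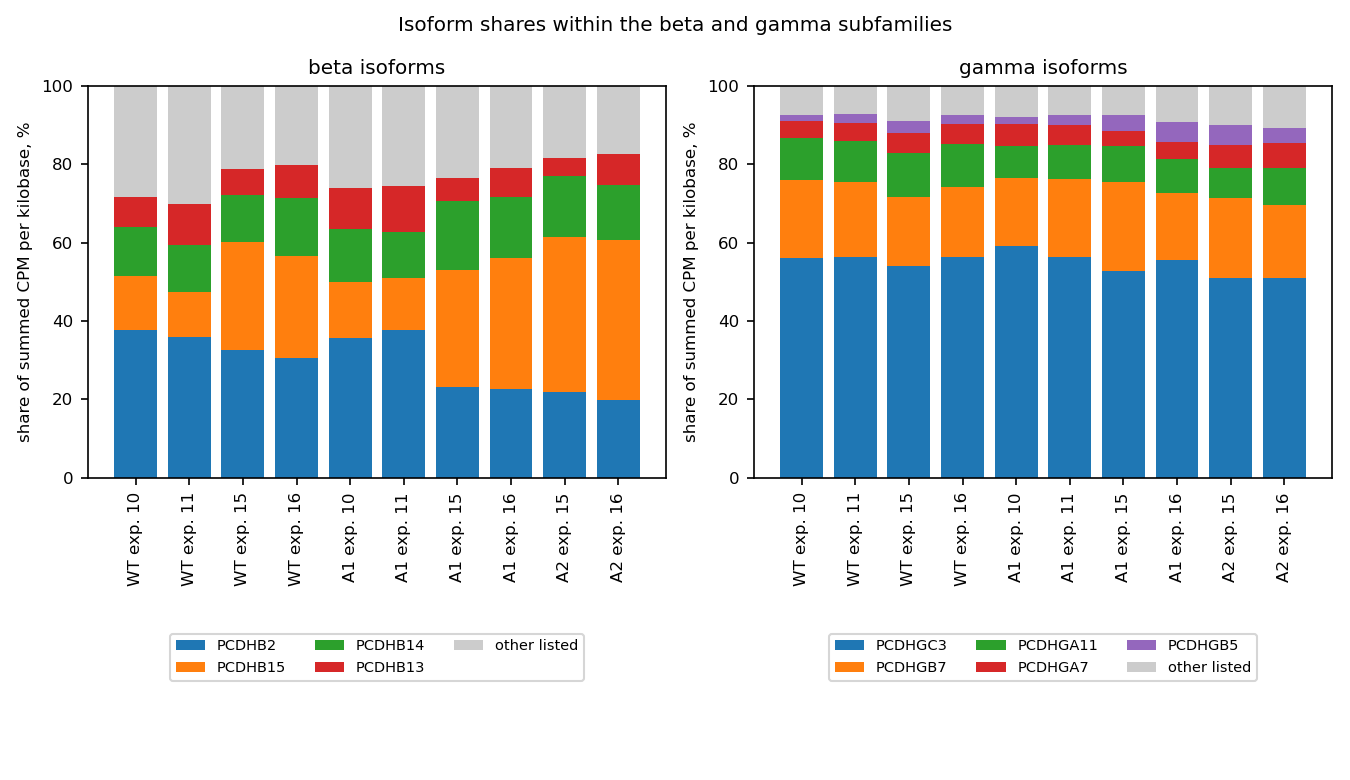
Share of the summed CPM per kilobase of the 12 listed beta isoforms (left) and the 20 listed gamma isoforms (right) in each library, as stacked bars in percent with the less abundant isoforms joined in grey. The gamma bars change little, with PCDHGC3 at 50.9% to 59.2%, while PCDHB15 widens from 11.5% to 40.9% of the beta bars.

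The order of all 33 isoforms by CPM per kilobase was compared between libraries. Spearman's rho over the 33 isoforms was 0.578 to 0.907 over the 45 pairs of libraries (median 0.787). Libraries of the same clone and the same experiment pair gave 0.838 to 0.902 (5 pairs), libraries of the same clone in different experiment pairs 0.709 to 0.848 (8 pairs), and libraries of different clones within an experiment pair 0.723 to 0.907 (16 pairs). The lowest value, 0.578, was between WT of experiment 11 and clone A2 of experiment 15. Over the 12 gamma isoforms with a mean under 1 CPM, rho was 0.021 to 0.916 (median 0.462), against 0.677 to 0.968 (median 0.835) over all 20. Over the 12 beta isoforms it was 0.441 to 0.909 (median 0.734). These correlations are across genes, which share libraries, lengths and, for gamma, exons, so no p is given.

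**Figure D3:**
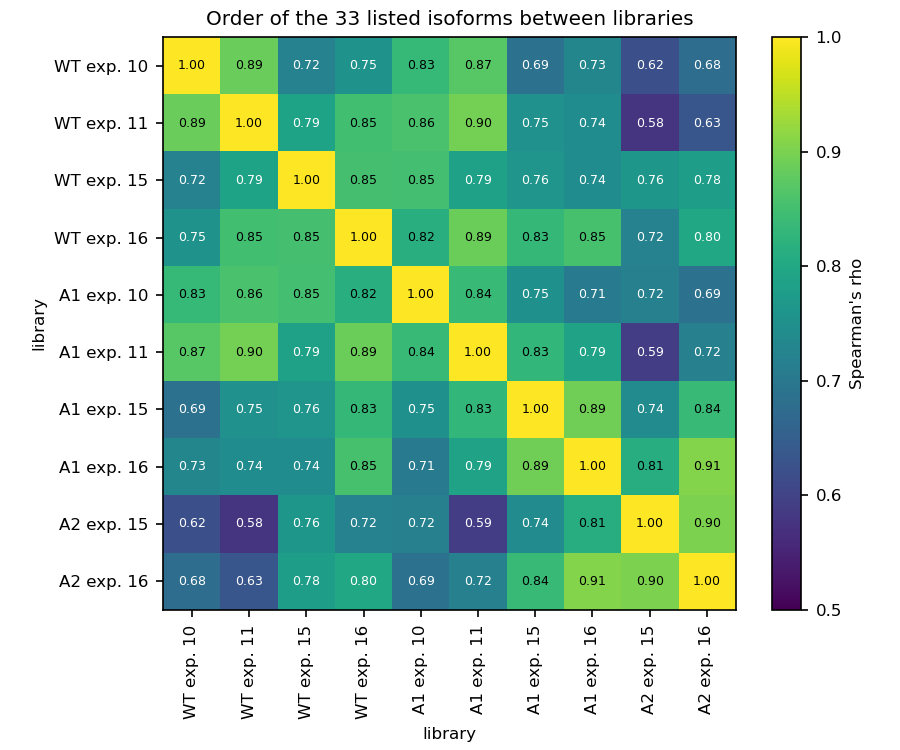
Spearman's rho of CPM per kilobase over the 33 listed isoforms for each pair of the 10 libraries, with the value printed in each cell and the colour scale from 0.5 to 1. Values fall to 0.578 between WT of experiment 11 and clone A2 of experiment 15, and reach 0.838 or more between libraries of 1 clone and 1 experiment pair.

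The spread between the 2 libraries of a clone and experiment pair varied widely over the members, and examples are given that were chosen after their values were seen. A chi-square per degree of freedom of 1 is what counting alone gives, and 13 of 33 members were under 2, while 13 were over 4. The value grows with the number of reads and does not rank stability. It was largest for PCDHGC3 at 27.7 and PCDHGB7 at 16.4, the members with the most reads. Among the members with 50 reads or fewer on average, of which there were 21, PCDHGA10 reached 14.98, with 10, 20, 8 and 55 reads in WT, 8, 50, 32 and 45 in clone A1 and 19 and 55 in clone A2. PCDHGC4, a C-type isoform, reached 15.8, with 36, 119, 55 and 68 reads in WT, 42, 89, 34 and 51 in clone A1 and 19 and 61 in clone A2. In CPM, the library of experiment 11 or 16 was above that of experiment 10 or 15 in 5 of 5 pairs for PCDHGA10 and in 4 of 5 for PCDHGC4, where WT of experiments 15 and 16 ran the other way. PCDHB15, by contrast, was at 0.355 and PCDHB14 at 0.967, so libraries of 1 clone and experiment pair differed in these isoforms by no more than counting.

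Within experiments 15 and 16, where both clones and WT were sequenced, clone A1 was first compared with WT. All tests are edgeR's quasi-likelihood test on 13920 genes with Benjamini-Hochberg adjustment at 0.05, from 1 fit of all 10 libraries. In bulk RNA, fewer cells using an isoform and less RNA of it per cell cannot be told apart. PCDHB2 was the 1 member of 33 called, where 8.24% of all genes were called. It was at 2.15 ± 0.0903 CPM in clone A1 and 3.97 ± 0.235 CPM in WT (SD, n = 2 each), a fold of 0.544 (log2 fold change −0.88, SE 0.18, edgeR adjusted p = 0.00721). Both clone libraries lay below both WT libraries. At unadjusted p under 0.05 there were 8 members of 33, where 22.5% of all genes were. The dominant gamma isoform PCDHGC3 had a log2 fold change of −0.00 (SE 0.11, edgeR adjusted p = 0.995), and PCDHGB7 one of 0.19 (SE 0.14, edgeR adjusted p = 0.475). The median over the 12 beta isoforms was −0.30 and over the 20 gamma isoforms 0.04, beside 0.00 over all genes.

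When the experiment entered the fit as a replicate block, a pairing that the titles give and the data show weakly, 5 members were called in clone A1, against 17.3% of all genes. PCDHGB5 was higher (log2 fold change 0.82, edgeR adjusted p = 0.00794), as were PCDHGB3 (1.65, edgeR adjusted p = 0.0239) and PCDHGB6 (1.35, edgeR adjusted p = 0.0408). PCDHGA9 was lower (−1.34, edgeR adjusted p = 0.0198), as was PCDHB2. The call of PCDHB2 was lost without WT of experiment 15, clone A1 of experiment 15 or clone A1 of experiment 16, and 4 members were called without WT of experiment 10 or of experiment 11. It was also lost with the clones as 3 groups over all libraries.

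Clone A2 differed from WT in 6 members, 3 beta isoforms that were lower and 3 gamma isoforms that were higher. Of all genes 16.4% were called, 7.33% higher and 9.07% lower. PCDHB2 was at 1.72 ± 0.0358 CPM in clone A2 against 3.97 ± 0.235 CPM in WT (SD, n = 2 each), a fold of 0.435 (log2 fold change −1.20, SE 0.19, edgeR adjusted p = 0.000378). PCDHB9 had 0.325, 0.857, 0.681 and 0.682 CPM in WT, 0.373, 0.435, 0.183 and 0.413 CPM in clone A1 and 0.224 and 0.156 CPM in clone A2. It was lower in clone A2 than in WT of the same experiments (log2 fold change −1.84, SE 0.51, edgeR adjusted p = 0.0215), on 8 to 35 reads a library. PCDHB10 had 0.542, 0.551, 0.302 and 0.331 CPM in WT, 0.290, 0.370, 0.160 and 0.229 CPM in clone A1 and 0.112 and 0.0781 CPM in clone A2, and was lowest in the 2 clone A2 libraries (log2 fold change −1.73, SE 0.53, edgeR adjusted p = 0.0343).

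The higher isoforms of clone A2 were of the gamma cluster. PCDHGA2, an A-type isoform, had 0.369, 0.326, 0.429 and 0.234 CPM in WT, 0.394, 0.218, 0.274 and 0.390 CPM in clone A1 and 1.10 and 0.918 CPM in clone A2, so both clone A2 libraries were above the other 8. Its fold against WT was 3.10 (log2 fold change 1.63, SE 0.39, edgeR adjusted p = 0.00822). PCDHGB2, of the B type, had 1.37, 0.673, 1.08 and 0.741 CPM in WT, 0.539, 0.979, 1.19 and 1.72 CPM in clone A1 and 2.15 and 2.23 CPM in clone A2, again with clone A2 above the other 8 libraries (fold 2.43, log2 fold change 1.28, SE 0.34, edgeR adjusted p = 0.0176). PCDHGB3 had 1.02, 0.306, 0.227 and 0.234 CPM in WT, 0.394, 0.522, 0.411 and 1.06 CPM in clone A1 and 0.628 and 1.02 CPM in clone A2. It was higher in clone A2 than in WT of the same experiments (log2 fold change 1.83, SE 0.58, edgeR adjusted p = 0.0404), but WT of experiment 10 was as high as clone A2 of experiment 16. PCDHGC3 had a log2 fold change of −0.01 (SE 0.11, edgeR adjusted p = 0.955).

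Beta isoforms had a median log2 fold change of −0.64 in clone A2, with 11 of 12 below 0, and gamma isoforms one of 0.28, with 15 of 20 above 0, beside 0.01 over all genes. The summed beta level was 8.22 ± 0.44 CPM in clone A2, 9.42 ± 0.25 CPM in clone A1 and 12.6 ± 0.07 CPM in WT of experiments 15 and 16 (SD, n = 2 each). The summed gamma level was 116 ± 1.08 CPM, 110 ± 6.66 CPM and 108.7 ± 1.76 CPM in the same order. With the replicate block 9 members were called, against 26.4% of all genes, and PCDHB13 (−0.88, edgeR adjusted p = 0.0346), PCDHGB5 (0.85, edgeR adjusted p = 0.00372) and PCDHGB7 (0.24, edgeR adjusted p = 0.0419) joined the 6. With 1 of the 10 libraries left out, PCDHB2 was called every time, PCDHGA2 was lost without WT of experiment 16 or clone A2 of experiment 15, and PCDHGB2 without these or clone A2 of experiment 16. PCDHB9, PCDHB10 and PCDHGB3 were lost without any 1 of the 4 libraries compared, and PCDHGB3 also without clone A1 of experiment 10 or of experiment 11. The count of calls was 1 without WT of experiment 16 or clone A2 of experiment 15, and 3 without WT of experiment 15 or clone A2 of experiment 16. DESeq2 did not call PCDHB10, and of the 6 members PCDHGA2 alone was called with the clones as 3 groups over all libraries.

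**Figure D4:**
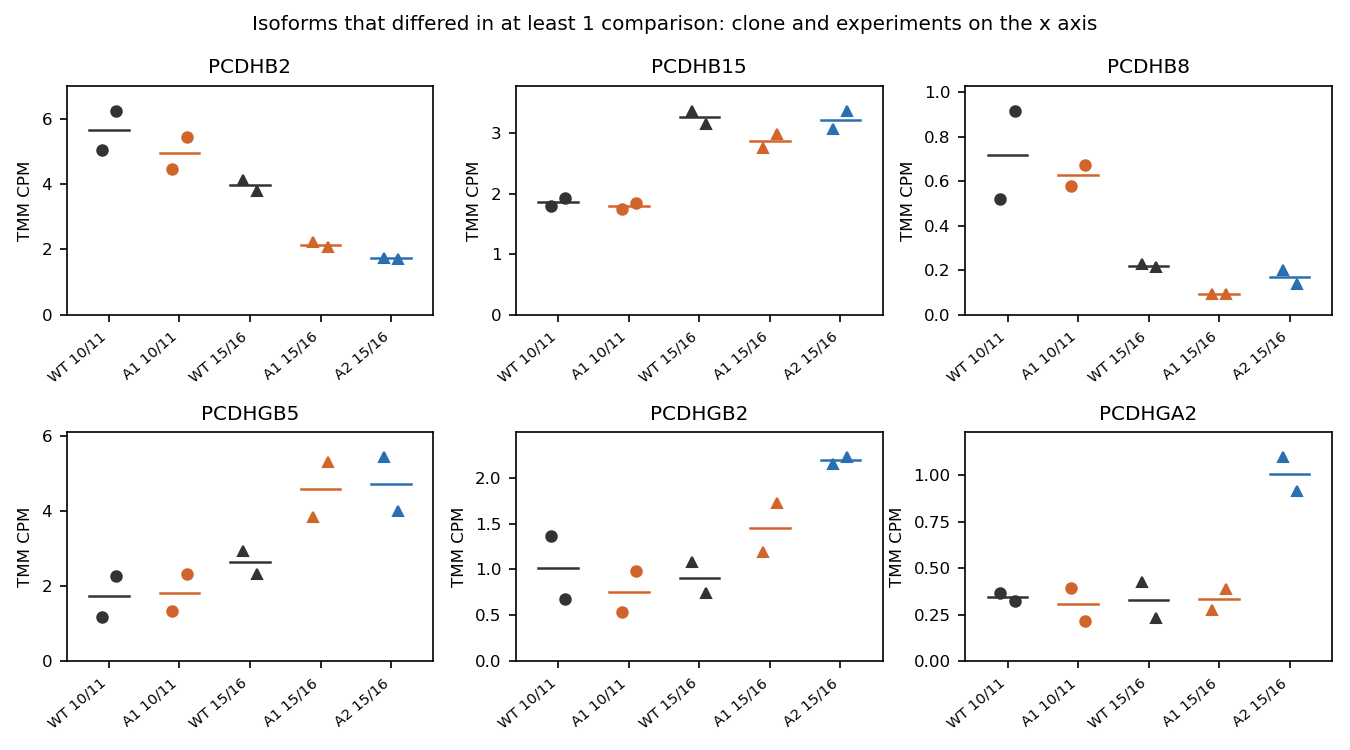
Level in CPM of 6 isoforms that passed the test in at least 1 comparison, with 1 point per library and a bar at the mean of the 2 libraries of each clone and experiment pair, and y axes that start at 0. In experiments 15 and 16 PCDHB2 is at 4.13 and 3.80 CPM in WT and at 1.75 and 1.70 CPM in clone A2, while PCDHB15 follows the experiments and PCDHGA2 stands out in clone A2.

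The clones were also compared directly, since a difference of each from WT does not show that they differ from each other. Clone A2 was higher than clone A1 in 2 members, PCDHGA2 and PCDHGA7, where 4.14% of all genes were called. PCDHGA2 was at 1.01 ± 0.128 CPM against 0.332 ± 0.0820 CPM (SD, n = 2 each), a fold of 3.01 (log2 fold change 1.59, SE 0.39, edgeR adjusted p = 0.0242). PCDHGA7 was at 7.11 ± 0.249 CPM against 4.65 ± 0.5004 CPM, a fold of 1.53 (log2 fold change 0.61, SE 0.16, edgeR adjusted p = 0.0429). PCDHB2 had a log2 fold change of −0.32 between the clones (SE 0.20, edgeR adjusted p = 0.457). With the replicate block PCDHGA9 joined (1.49, edgeR adjusted p = 0.0145), making 3 members, against 8.71% of all genes. Both calls were lost without any 1 of the 4 libraries compared, and that of PCDHGA7 also without clone A1 of experiment 10 or 11 or WT of experiment 15 or 16, so these left 0 and 1 calls. DESeq2 gave no adjusted p for PCDHGA2, with a fold of 3.03, and the fit of 3 groups did not call PCDHGA7.

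In experiments 10 and 11, no member was called between clone A1 and WT by edgeR, where 0.194% of all genes were called. At unadjusted p under 0.05 there were 2 of 33, where 10.6% of all genes were, PCDHB3 with a log2 fold change of −1.09 and PCDHGA5 with 1.22. PCDHGA5 had 0.152, 0.245, 0.252 and 0.273 CPM in WT, 0.498, 0.435, 0.480 and 0.620 CPM in clone A1 and 0.292 and 0.488 CPM in clone A2, so all 6 knock-out libraries were above all 4 WT libraries, on 7 to 27 reads. It was the 1 member of 33 whose groups stood apart in this way, as 1.51% of all genes did. Against WT of experiments 15 and 16, PCDHGA5 differed by 1.05 in log2 for clone A1 (adjusted p = 0.144, edgeR) and by 0.58 for clone A2 (adjusted p = 0.418, edgeR), neither past the threshold. In experiments 10 and 11 DESeq2 called 0 members, with 0 at unadjusted p under 0.05, where 0.453% and 9.3% of all genes were. There edgeR with the replicate block called 0, with 3 at unadjusted p under 0.05, where 2.74% and 20.3% of all genes were. In the fit without the block PCDHB2 had a log2 fold change of −0.20 in experiments 10 and 11 (SE 0.17, edgeR adjusted p = 0.650). Whether the effect of clone A1 changed between the experiment pairs was tested as an interaction. It was called in 0 members by edgeR (7 at unadjusted p under 0.05, where 15.5% of all genes were), where 2.5% of all genes were called. It was called in 0 members by DESeq2 (6 at unadjusted p under 0.05, where 14.1% of all genes were), where 3.84% of all genes were called. For PCDHB2 the change was −0.68 on the log2 scale, with SE 0.25 (edgeR adjusted p = 0.173), so the lower PCDHB2 of clone A1 is shown in experiments 15 and 16 but not shown to be limited to them. With the replicate block 1 member was called, PCDHGA9 (−1.91, edgeR adjusted p = 0.0303), against 8.96% of all genes. Without WT of experiment 10 there was 1 call, and without WT of experiment 11 there were 2.

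The experiments themselves were compared within WT and within clone A1. The labels give only the experiment number, so what differed between the experiment pairs is not known from them. In WT, 5 members were called between experiments 15 and 16 and experiments 10 and 11, where 16.4% of all genes were called (8.61% higher and 7.74% lower). PCDHB15 was higher, at 3.27 ± 0.155 CPM against 1.87 ± 0.0973 CPM (SD, n = 2 each; log2 fold change 0.80, SE 0.18, edgeR adjusted p = 0.00793). PCDHGB4 had 0.304, 0.388, 0.731 and 1.05 CPM in WT, 0.663, 0.5003, 0.503 and 0.436 CPM in clone A1 and 0.807 and 0.976 CPM in clone A2. It was higher in WT of experiments 15 and 16 (log2 fold change 1.37, SE 0.35, edgeR adjusted p = 0.0144), with no overlap between the pairs. Lower were PCDHB2 (−0.51, SE 0.17, edgeR adjusted p = 0.0476), PCDHB3 and PCDHB8.

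PCDHB3 had 0.542, 0.632, 0.126 and 0.136 CPM in WT, 0.311, 0.239, 0.206 and 0.138 CPM in clone A1 and 0.179 and 0.156 CPM in clone A2, so WT of experiments 10 and 11 stood above the other 8 libraries (WT between the pairs, log2 fold change −2.13, SE 0.46, edgeR adjusted p = 0.00490). PCDHB8 had 0.521, 0.918, 0.227 and 0.214 CPM in WT, 0.580, 0.674, 0.0914 and 0.0918 CPM in clone A1 and 0.202 and 0.137 CPM in clone A2. All 4 libraries of experiments 10 and 11 were above all 6 of experiments 15 and 16. The log2 fold change of PCDHB8 between the pairs was −1.70 in WT (SE 0.42, edgeR adjusted p = 0.0119) and −2.74 in clone A1 (SE 0.51, edgeR adjusted p = 0.000501), on 4 to 45 reads a library. In WT, the calls of PCDHB15, PCDHB3 and PCDHGB4 were each lost without 1 library (WT of experiment 15 for PCDHB15 and WT of experiment 16 for the others), PCDHB8 was lost without WT of experiment 11, 15 or 16, and PCDHB2 was kept only without WT of experiment 10. The count of calls was 8 without WT of experiment 11, 2 without WT of experiment 15 and 1 without WT of experiment 16. DESeq2 did not call PCDHB2 and gave no adjusted p for PCDHB3, with a fold of 0.223.

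Clone A1 had 8 members called between the experiment pairs, 5 higher and 3 lower, where 39.4% of all genes were called (20.4% higher and 19% lower). The share of members, 24.2%, was below that background. PCDHB2 was at 2.15 ± 0.0903 CPM in experiments 15 and 16 and 4.95 ± 0.693 CPM in experiments 10 and 11 (SD, n = 2 each; log2 fold change −1.20, SE 0.18, edgeR adjusted p = 7.26e-05), and PCDHB13 fell with it (log2 fold change −1.24, SE 0.34, edgeR adjusted p = 0.00824). PCDHB15 rose (log2 fold change 0.68, SE 0.19, edgeR adjusted p = 0.00869). The other 4 that rose were gamma isoforms of the B type. PCDHGB5 was at 4.59 ± 1.03 CPM in experiments 15 and 16 and 1.83 ± 0.708 CPM in experiments 10 and 11, a fold of 2.52 (log2 fold change 1.33, SE 0.30, edgeR adjusted p = 0.00283). PCDHGB2 changed by 0.94 on the log2 scale (edgeR adjusted p = 0.0493).

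PCDHGB1 had 0.0651, 0.510, 1.08 and 0.663 CPM in WT, 0.311, 0.392, 0.754 and 1.01 CPM in clone A1 and 0.852 and 1.09 CPM in clone A2. All 6 libraries of experiments 15 and 16 were above all 4 of experiments 10 and 11, with a log2 fold change of 1.32 in clone A1 (SE 0.50, edgeR adjusted p = 0.0471) and 1.55 in WT (SE 0.52, edgeR adjusted p = 0.0521). PCDHGB6 had 0.217, 0.816, 0.277 and 0.448 CPM in WT, 0.456, 0.261, 0.708 and 1.17 CPM in clone A1 and 0.606 and 0.664 CPM in clone A2. It rose in clone A1 (log2 fold change 1.38, SE 0.49, edgeR adjusted p = 0.0341), while its WT libraries of the pairs overlapped. With 1 of the 10 libraries left out, PCDHB2, PCDHB8 and PCDHGB5 were called every time. The call of PCDHB13 was lost without clone A1 of experiment 11 or 15, that of PCDHB15 without clone A1 of experiment 10 or 16, that of PCDHGB6 without clone A1 of experiment 10, 11 or 16, that of PCDHGB1 without any clone A1 or clone A2 library, and that of PCDHGB2 without clone A1 of experiment 10, 15 or 16 or either clone A2 library. The count of calls fell to 4 without clone A1 of experiment 10 or of experiment 16. DESeq2 did not call PCDHGB1, PCDHGB2 or PCDHGB6, and RLE scaling did not call PCDHGB2.

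**Figure D5:**
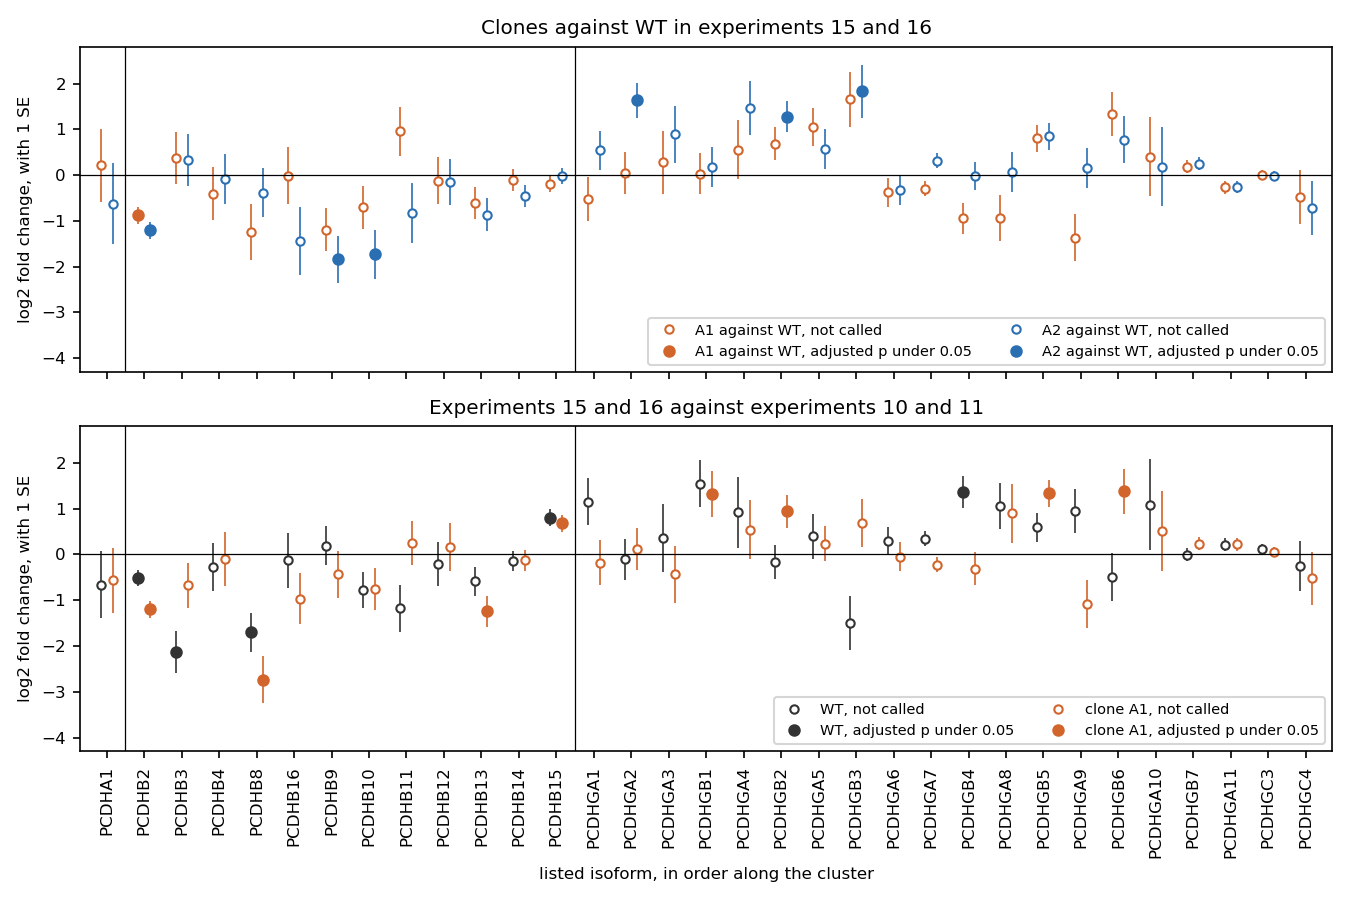
Log2 fold change with 1 SE of each listed isoform in order along the cluster, for clones A1 and A2 against WT in experiments 15 and 16 (top) and for experiments 15 and 16 against 10 and 11 within WT and clone A1 (bottom), with filled points at an adjusted p under 0.05. Called beta isoforms lie below 0 except PCDHB15, and called gamma isoforms lie above 0.

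Over the 7 comparisons 15 of 33 members (45.5%) were called at least once, 7 beta and 8 gamma, where 47% of all genes were, and 18 in none, PCDHGC3, PCDHGB7, PCDHGA11 and PCDHB14 among them. The comparisons share libraries, so their calls are not independent of each other. The median log2 fold change between the experiment pairs was −0.40 in WT and −0.56 in clone A1 over the beta isoforms, and 0.35 and 0.23 over the gamma isoforms, beside 0.00 and 0.01 over all genes.

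Genes that act on the promoters, from a list of 32 that were all listed, had their highest count of calls between the experiments of clone A1, as all genes did, with 3 higher and 21 lower (median −0.28) where 20.4% of all genes were higher and 19% lower. Among these CTCF, which binds the promoters, had a difference between the experiments of −0.33 in log2 (edgeR adjusted p = 0.00275), SMCHD1, which represses clusters of this kind, −0.42 (edgeR adjusted p = 0.00482), and DNMT1, the maintenance DNA methyltransferase, −0.69 (edgeR adjusted p = 7.66e-07). In WT 1 was higher and 5 lower, where 16.4% of all genes were called, with DNMT1 at −0.45 (edgeR adjusted p = 0.000434). Against WT in experiments 15 and 16, 1 was higher and 5 lower in clone A1, and 3 higher and 6 lower in clone A2, where 8.24% and 16.4% of all genes were called. TRIM28, a corepressor that recruits SETDB1, was at −0.36 (edgeR adjusted p = 0.00442) and −0.24 (edgeR adjusted p = 0.0269). None was called between the clones, between clone A1 and WT in experiments 10 and 11, or in the interaction.

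Of 26 genes beside the clusters on 5q31, 24 were listed. Against WT in experiments 15 and 16, 1 was called in clone A1 (PCDH1, 0.72, edgeR adjusted p = 0.0397) and 2 in clone A2 against WT (PCDH1, 0.71, edgeR adjusted p = 0.0266, and ARAP3, −0.54, edgeR adjusted p = 0.000432). Between the experiments 2 were lower in WT, and 2 were higher and 4 lower in clone A1. These counts stand beside 8.24% and 16.4% of all genes called for the clones, and 16.4% and 39.4% for the experiments of WT and clone A1. None was called in the other 3 comparisons.

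Protocadherins outside the clusters are encoded singly, and 2 of the list, PCDH1 and PCDH12, are also on the list of neighbours, so the calls of PCDH1 count in both. Of 11, 9 were listed, and 3 were higher in clone A1 and 4 in clone A2 against WT in experiments 15 and 16, with none lower (medians 0.38 and 0.33), where 8.24% and 16.4% of all genes were called. PCDH10 had 73.4, 74.5, 94.3 and 102 CPM in WT, 60.9, 70.6, 124 and 138 CPM in clone A1 and 150 and 156 CPM in clone A2. Its log2 fold change was 0.42 in clone A1 (SE 0.08, edgeR adjusted p = 0.00386) and 0.64 in clone A2 (SE 0.08, edgeR adjusted p = 5.46e-05), and the change of the clone A1 effect between the experiment pairs was 0.59 (SE 0.11, edgeR adjusted p = 0.0112). PCDH1 and PCDH9 were also called in clone A1, and PCDH1, PCDH7 and PCDH17 in clone A2. Between the experiments 2 were higher in WT, where 16.4% of all genes were called, and 6 higher and 1 lower in clone A1, where 39.4% were. None was called between the clones or between clone A1 and WT in experiments 10 and 11.

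Of 24 signalling and cleavage partners of the protocadherins, all listed, 1 was lower in clone A1 and 1 in clone A2 against WT, in both PSEN2, a subunit of the gamma-secretase that cuts them (−0.45, edgeR adjusted p = 0.00400, and −0.27, edgeR adjusted p = 0.0384). MARCKS was lower in clone A2 than in clone A1 (−0.28, edgeR adjusted p = 0.0397), and between the experiments 2 were higher and 3 lower in WT, and 4 higher and 4 lower in clone A1. Of 14 other adhesion genes, all listed, CDH3 was lower in clone A1 (−1.28, edgeR adjusted p = 0.00965), and CDH3, CELSR1 and JUP were lower in clone A2, with CELSR1 also lower than in clone A1 (−0.72, edgeR adjusted p = 7.79e-05). Between the experiments 3 were lower in WT, and 5 higher and 6 lower in clone A1. In both lists none was called in the other 2 comparisons. The counts of both lists stand beside 8.24%, 16.4% and 4.14% of all genes called for clone A1 and clone A2 against WT and for the clones against each other, and beside 16.4% and 39.4% between the experiments of WT and of clone A1.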

How the data were processed

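The authors deposited 1 table of raw, whole-number counts of reads for 10 libraries, with genes given by NCBI identifier. Stranded mRNA libraries had been aligned by them with HISAT2 to GRCh38 under an NCBI annotation, and genes with a count of 0 were removed. StringTie is also named in the submitters' processing notes. The counting program, its use of strand and its handling of shared exons are not given in the sources used here. Of the 13920 genes, 13885 carried a symbol in the RefSeq gene table. Groups came from the labels. Members, lists, promoter strings and tests were chosen with earlier results of these data known. Values in every library were to be given for members called in any comparison and for the 3 highest isoforms of each subfamily in WT. From the lists (promoter regulators, neighbours on 5q31, non-clustered protocadherins, signalling and cleavage partners, other adhesion genes) at most 4 called genes each are given with values, and markers of 5 cell types were fixed beside them.

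Tests used R 4.3.3 with edgeR 4.0.16 (TMM, robust quasi-likelihood test, 5 cells of clone and experiment pair). DESeq2 1.42.0, RLE scaling, a mean count of at least 10, the replicate block, single experiment pairs, 3 groups over all libraries and each library left out were alternatives. Exon lengths came from GENCODE, which differs from the authors' annotation. The 45 pairs of libraries differed by more than counting (chi-square per degree of freedom at least 6.74).

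Pairing by experiment number comes from the titles. After the group mean was removed, log2 CPM of WT and clone A1 of the same experiment correlated at 0.468 to 0.526, but libraries of the other experiment of the pair at 0.399 to 0.461. The change between the 2 libraries of an experiment pair correlated with that of WT at 0.0844 and 0.134 in clone A1 and 0.151 in clone A2 (a check added after seeing the data), so the data show mainly the experiment pairs, and values with the replicate block are alternatives. Depth of 40077369 to 51311482 counts limits the weakest members to a few reads.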

Additional observations from a re-analysis of the deposited data

Results flagged for a closer look

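In the 4 WT and the 4 clone A1 libraries each member was checked for a library whose gap to the nearest other is, as a part of the group's range, above Dixon's 95% critical value for 4 samples, in 66 groups of values. Chance flags about 1 in 20 groups, and 3 were found. PCDHGB3 was at 1.02 CPM in WT of experiment 10, against 0.227 to 0.306 CPM in the other 3 WT libraries. PCDHGA4 was at 0.131 CPM in clone A1 of experiment 11, against 0.343 to 0.367 CPM in the other 3 libraries of clone A1. PCDHB14 was at 1.54 CPM in clone A1 of experiment 16, against 1.83 to 1.85 CPM in the others, on 89, 84, 80 and 67 reads.

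Effects of the clones differed by a direct test in 2 members, which were higher in clone A2 than in clone A1 of experiments 15 and 16: PCDHGA2 by 1.59 and PCDHGA7 by 0.61 on the log2 scale (edgeR adjusted p = 0.0242 and 0.0429). The causes were not tested.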

How the results depend on the processing

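Over 22 called pairs of gene and comparison, 313 alternatives were run. The direction held in all 313, the call held in 231 and was lost in 80, and DESeq2 gave no adjusted p in 2. The cause of lost calls was not tested. Calls were also lost in fits that keep all libraries, namely DESeq2, RLE scaling and the clones as 3 groups. Alternatives that leave out 1 library can leave a lone sample, which is then assumed to vary like the others. RLE scaling and a mean count of at least 10 (29 members tested) kept every count within 1.5 times. The replicate block moved members called from 1 to 5 in clone A1 of experiments 15 and 16 and from 0 to 1 for the change of the clone A1 effect, while the share of all genes rose from 8.24% to 17.3% and from 2.5% to 8.96%. It gave 9, 3 and 0 for clone A2 against WT, clone A2 against clone A1 and clone A1 in experiments 10 and 11, where 26.4%, 8.71% and 2.74% of all genes were called. DESeq2 gave 1 for clone A2 against clone A1 and 5 between the experiments of clone A1, where it called 4.78% and 38.4% of all genes. Experiments 15 and 16 alone gave 5 for clone A1 against WT, 7 for clone A2 against WT and 3 between the clones, where 13.2%, 21.2% and 6.16% of all genes were called, against 8.24%, 16.4% and 4.14% in the fit of all libraries. The clones as 3 groups over all libraries gave 0 for clone A1 (edgeR, 2 members at unadjusted p under 0.05), 1 for clone A2 and 1 between the clones, in a fit that counts the difference between experiment pairs as spread. Of all genes this fit called 0%, 2.21% and 1.55% in the same order, with 4.39% at unadjusted p under 0.05 for clone A1. With each library left out, the counts were 0 to 4 for clone A1 and 1 to 7 for clone A2 against WT, 0 to 2 between the clones, 0 to 0 for clone A1 in experiments 10 and 11, 1 to 8 and 4 to 8 between the experiments of WT and clone A1, and 0 to 2 for the interaction. Isoforms in WT, clone A1 and clone A2 numbered 5, 5 and 7 at 2 CPM and 12, 12 and 17 at 0.5 CPM, 9 to 10, 8 to 8 and 13 to 14 with each library left out, and 10, 9 and 10 in experiments 15 and 16 alone, both added after seeing the data. The lowest rho between libraries was 0.588 with unshared exonic bases, 0.563 with no division by length and 0.578 to 0.634 with each library left out. Depth limits the members with under 10 reads on average, of which there were 4.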
